A study of Drosophila melanogaster with 2 samples.

Results

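The peaks described here lie at promoters that serve a single direction of protein-coding transcription, that is, start sites with no protein-coding gene starting on the opposite strand just upstream. They were taken from the pooled thresholded list of a ChIP-seq experiment on CG11247-eGFP. A peak was kept when its summit lay within 500 bp of a protein-coding transcription start site and the nearest start site had no start site of another protein-coding gene on the opposite strand, pointing away, within 1000 bp upstream. The rule found 1182 peaks among the 4495 peaks of the pooled list, of which 4476 were on 2L, 2R, 3L, 3R, 4 and X. These are called one-directional peaks below. Peaks of the same list at start sites that do have such a partner numbered 897 and are called divergent peaks. A peak of the authors' ranked list that is also in the thresholded list is said to have passed.

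The material was whole Drosophila melanogaster embryos of 0 to 24 h from a transgenic line in which CG11247 carries enhanced green fluorescent protein (eGFP) as a tag, the target of the anti-GFP antibody used to pull down its chromatin. There was 1 group with 2 biological replicates and no second condition, so comparisons are between kinds of promoter, and the spread between replicates is shown as the value in each replicate's own lists. All cells of the embryo and all stages of the first day were mixed, so cell types cannot be told apart. The fusion protein was read in place of the untagged protein, and its control experiment was not used here, so passing does not separate CG11247 from material that precipitates whatever the antibody. CG11247 itself lies on 3L at 21724326 to 21728806, on the minus strand; 16 passed peaks lay within 50 kb of it, of which 2 were one-directional peaks.

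Fly genes are densely packed, and many neighbouring genes start back to back and share the short stretch of DNA between them. Such divergent pairs are rich in broadly expressed genes, whose promoters often carry sites for Dref, for M1BP (Motif 1) and for the boundary protein BEAF-32. Genes that start alone include many that are regulated in space and time, and the GAGA factor (Trl), which binds GA repeats and opens chromatin, is known from many of their promoters. CTCF is an insulator protein, and the TATA box and the initiator are core elements read by the basal transcription machinery.

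The strongest one-directional peaks mostly sat on DNA rich in A and T. Shown here are the 121 bases round the summit of the 6 strongest peaks on 2L, 3L, 3R, 4 and X that passed in both replicates and whose window holds no annotated exon, read in the direction of the gene from the RefSeq sequence of assembly release 6 (dm6). Capitals mark runs of at least 8 bases made only of A and T.
CG14100, chr3L:19590552-19590672, minus strand: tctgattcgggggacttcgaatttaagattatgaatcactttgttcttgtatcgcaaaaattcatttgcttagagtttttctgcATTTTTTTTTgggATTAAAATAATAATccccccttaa
ph-p, chrX:2137286-2137406, minus strand: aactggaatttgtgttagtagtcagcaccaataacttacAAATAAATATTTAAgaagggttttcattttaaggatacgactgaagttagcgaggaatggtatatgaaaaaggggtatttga
CG18549, chr3R:12449095-12449215, plus strand: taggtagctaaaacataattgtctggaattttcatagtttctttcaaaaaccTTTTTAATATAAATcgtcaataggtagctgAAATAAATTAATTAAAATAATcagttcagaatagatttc
gish, chr3R:16280664-16280784, plus strand: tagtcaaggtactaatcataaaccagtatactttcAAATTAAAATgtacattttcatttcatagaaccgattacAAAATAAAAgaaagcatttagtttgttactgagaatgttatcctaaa
CG1635, chr3R:31588482-31588602, plus strand: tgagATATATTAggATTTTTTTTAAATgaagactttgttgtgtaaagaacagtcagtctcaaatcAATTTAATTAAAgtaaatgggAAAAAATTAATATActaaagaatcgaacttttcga
Rtnl1, chr2L:4997594-4997714, minus strand: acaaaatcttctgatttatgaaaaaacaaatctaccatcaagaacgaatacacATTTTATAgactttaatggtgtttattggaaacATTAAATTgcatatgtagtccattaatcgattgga
The GC content of these windows was 31.4% at CG14100, 32.2% at ph-p, 24.0% at CG18549, 25.6% at gish, 24.0% at CG1635 and 27.3% at Rtnl1. Runs of A and T covered 47 of the 121 bases at CG1635 and 14 at ph-p. The windows of CG14100 and CG18549 lay between genes and those of ph-p, gish, CG1635 and Rtnl1 in introns.

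Another set shows the known motifs that separated one-directional peaks from other summits, each at the strongest peaks by the same conditions that hold it. Capitals mark the motif on either strand.
CG1907, GAGA factor site, chr3R:29618826-29618946, plus strand: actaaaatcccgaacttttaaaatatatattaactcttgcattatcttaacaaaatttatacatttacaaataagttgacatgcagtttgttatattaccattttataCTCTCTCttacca
aralar1, GAGA factor site, chr3R:30450455-30450575, minus strand: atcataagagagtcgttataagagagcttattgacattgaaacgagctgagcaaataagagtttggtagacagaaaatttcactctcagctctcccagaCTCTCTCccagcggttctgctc
dco, CTCF site, chr3R:31061492-31061612, minus strand: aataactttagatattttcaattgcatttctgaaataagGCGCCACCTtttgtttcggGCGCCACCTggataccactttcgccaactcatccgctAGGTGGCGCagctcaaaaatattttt
CG1354, CTCF site, chrX:9778593-9778713, plus strand: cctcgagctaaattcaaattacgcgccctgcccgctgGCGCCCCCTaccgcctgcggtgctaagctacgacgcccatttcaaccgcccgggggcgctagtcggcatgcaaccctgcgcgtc
cnc, Dref site, chr3R:23190056-23190176, minus strand: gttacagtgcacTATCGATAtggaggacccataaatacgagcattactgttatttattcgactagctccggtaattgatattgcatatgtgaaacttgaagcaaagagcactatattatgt
lute, Motif 1 core, chr3R:17385735-17385855, plus strand: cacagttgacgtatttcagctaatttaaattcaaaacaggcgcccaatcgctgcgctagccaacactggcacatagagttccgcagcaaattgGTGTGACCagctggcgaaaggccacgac
papi, Motif 6 core, chr2L:2221738-2221858, plus strand: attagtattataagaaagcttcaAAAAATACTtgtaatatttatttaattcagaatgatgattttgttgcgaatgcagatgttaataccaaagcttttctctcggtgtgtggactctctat
CG33169, Motif 7, chr3L:22863730-22863850, plus strand: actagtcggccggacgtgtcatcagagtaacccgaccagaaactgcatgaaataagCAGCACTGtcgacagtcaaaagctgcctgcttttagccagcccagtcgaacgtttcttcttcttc
The window of dco, which encodes the Doubletime casein kinase, held 3 matches to the CTCF site on both strands. GC content was 42.1% for dco, 66.1% for CG1354, 36.4% for cnc and 50.4% for lute. It was 24.0% for CG1907, 43.0% for aralar1, 28.9% for papi and 50.4% for CG33169. The motif letters are part of these values, so they are not compared with the strongest set.

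One-directional promoters passed less often than divergent ones. Of 17783 ranked summits within 500 bp of a protein-coding start site, 11.7% passed. At one-directional promoters 1182 of 13342 ranked summits passed, or 8.86% (Wilson 95% interval 8.39 to 9.35%), against 897 of 4441 at divergent promoters, or 20.2% (19.0 to 21.4%). The ratio of the shares was 0.439 (95% interval 0.405 to 0.475; two-sided Fisher's exact test over summits, adjusted p = 1.35e-82). In replicate 1 the shares were 7.48% at one-directional and 17.3% at divergent promoters, and in replicate 2 they were 6.35% and 15.0%, so both replicates gave the same order. With 1 summit kept per gene, the strongest, the ratio was 0.547. This is 1 of 8 such comparisons of classes in all, over which p-values were adjusted. Regions, not samples, are the units of these tests, and a p-value over regions does not measure the spread between replicates.

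Signal, the authors' peak-caller score, covered a wide range at one-directional peaks, with a median of 132, quartiles of 92.1 and 222, and extremes of 2.22 and 2597. Divergent peaks had a median of 145. Of the one-directional peaks 47.5% lay above the median of both kinds together, against 53.2% of the divergent peaks (ratio 0.894, interval 0.821 to 0.974; Fisher's exact test, adjusted p = 0.0232). In each replicate alone this difference did not pass, with 48.7% against 51.7% in replicate 1 and 48.8% against 51.5% in replicate 2 (Fisher's exact test, p = 0.271 and p = 0.316). Among the strongest 100 passed peaks of the arms, 36 were one-directional peaks, beside 1182 of all 4476 passed peaks of the arms.

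The highest one-directional signals came from genes of varied function. CG14100 had a pooled signal of 2597, with 1479 in replicate 1 and 1123 in replicate 2, and its peak at 19590447 to 19590781 on 3L had its summit 88 bp upstream of the start site. Its upstream neighbour is ash1, a Trithorax group histone methyltransferase gene, whose end on the same strand lay 249 bp away. The promoter of ph-p, which encodes the Polyhomeotic subunit of Polycomb repressive complex 1, came next, with a pooled signal of 1735, 913 in replicate 1 and 847 in replicate 2. The summit of ph-p lay 491 bp upstream, close to the limit of the rule, at 2137192 to 2137519 on X. Its tandem duplicate ph-d had a peak with a signal of 73.6 that passed in replicate 1 alone; reads shared between these copies were not examined here.

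Further strong peaks belonged to eIF6, a factor of large ribosomal subunit assembly (1589.6; 801 in replicate 1 and 781 in replicate 2), to CG18549 (1414), to px, the plexus gene of wing vein patterning (1411), and to Fkbp14, a prolyl isomerase of the endoplasmic reticulum (1310.0). Those of GstE13, a glutathione S-transferase (1239), CG1888 (1217), the transcription factor gene Sox14 (1176), the casein kinase gene gish (1007), MFS10 (999.9) and CG1635 (925) followed. The next 8 ran from 912 at Rtnl1, a reticulon of the endoplasmic reticulum, down to 818 at TRAM, and included amon, a prohormone convertase gene (836), moody, a receptor gene of the blood-brain barrier (824), and REPTOR, a transcription factor gene of the TORC1 pathway (824). All 20 passed in both replicates by the way they were chosen. Of them, 19 had their summit upstream of the start site, GstE13 at 71 bp downstream being the exception. The only one-directional peak of arm 4 was at PlexA, a semaphorin receptor gene, with a signal of 448 and a summit 181 bp upstream.

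The peaks come from a list filtered by irreproducible discovery rate, a measure of how well the ranks of peak lists agree. Which lists were compared for that filter was not established here. The pooled list also shares the reads of both replicates, so some agreement between the replicates is built into its peaks. The signals of both replicates had a Spearman's rho of 0.716 over the 1160 peaks with a value in each, given as a description across peaks, which share libraries and are not independent. In the replicates' own thresholded lists, 615 one-directional peaks overlapped a passed peak of both replicates, 180 of replicate 1 only, 158 of replicate 2 only and 229 of neither. The share in both was 52.0% for one-directional peaks and 56.4% for divergent peaks (ratio 0.922, interval 0.852 to 0.999; Fisher's exact test, adjusted p = 0.0810), which did not pass. The peaks that passed in neither replicate alone gathered at low signals, as the plot of replicate signals shows. A group of 46 peaks had a pooled signal under 40, and 40 of these were overlapped by a stronger passed peak. The lowest were RabGGTa (2.22), rdx (2.30) and rgn (2.51). RabGGTa also had a one-directional peak of 140.1 on the other side of the same start site, and both were matched to the same replicate peaks, with 79.4 in replicate 1 and 75.2 in replicate 2.

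**Figure D1:**
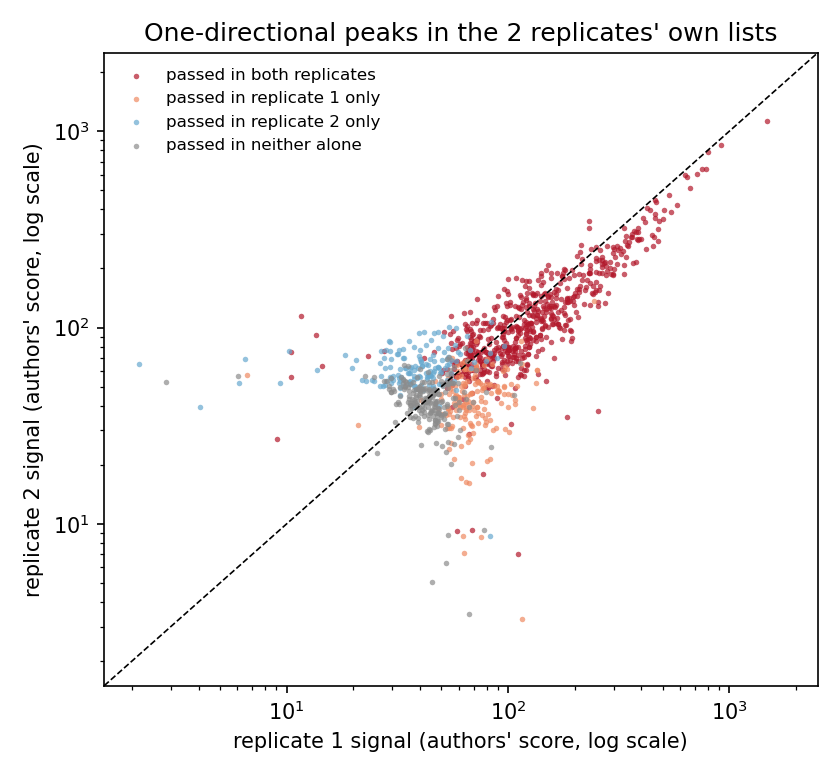
Signal of each one-directional peak in the lists of replicate 1 (horizontal axis) and replicate 2 (vertical axis), both the authors' score on a log scale, coloured by the replicates whose own thresholded list holds it; the dashed line marks equal scores, which are not on a common scale between lists. The 615 peaks that passed in both replicates reach up to CG14100 at 1479 in replicate 1 and 1123 in replicate 2, and the 229 that passed in neither lie among the lower scores.

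One-directional peaks lay mostly just upstream of the start site. Their median place was 112 bp upstream of the start site (quartiles 212 and 7.25 bp upstream), against 58 bp upstream for divergent peaks (upper quartile 9 bp) and 71 bp downstream for the non-passing summits of one-directional promoters. The last group holds the strongest summit of each of the 6035 genes that had a one-directional ranked summit and none that passed. Upstream summits made up 76.6% of the one-directional peaks and 78.1% of the divergent peaks, a difference that did not pass (ratio 0.981, interval 0.936 to 1.03; Fisher's exact test, adjusted p = 0.428), and the ratio was 1.03 in replicate 1 and 0.974 in replicate 2. Among summits within 200 bp of the start site the upstream shares were 75.4% and 80.1% (Fisher's exact test, p = 0.0267, unadjusted). The window from 50 to 250 bp upstream held 541 one-directional peaks, and 307 lay more than 250 bp from the start site on either side. The place of divergent peaks is bounded by the rule, since a summit nearer to the partner is assigned to the partner's start site. The medians of these classes are therefore set side by side as a description only. The same bound acts on the upstream shares, so their test cannot show whether the classes are alike in place.

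**Figure D2:**
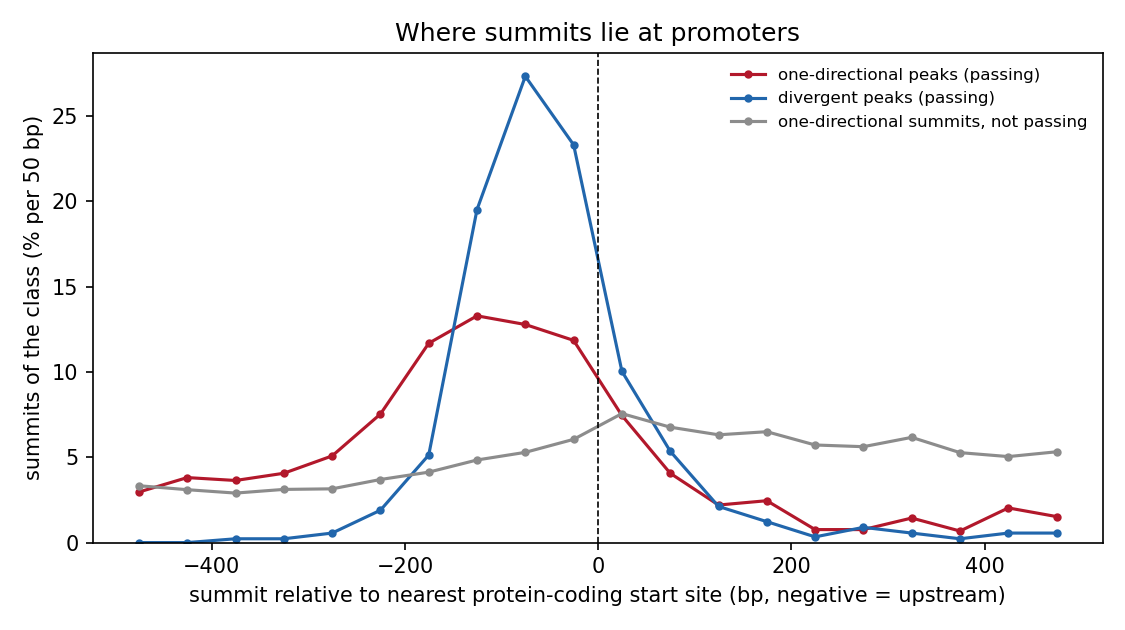
Share of summits in each 50 bp step (vertical axis, percent of the class) by place relative to the nearest protein-coding start site (horizontal axis, bp, negative upstream) for one-directional peaks, divergent peaks and non-passing summits of one-directional promoters. One-directional peaks are highest from 150 to 101 bp upstream at 13.3%, divergent peaks from 100 to 51 bp upstream at 27.3%, and non-passing summits spread over both sides.

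Most summits of one-directional peaks avoided exons. Between genes lay 43.0% of them (Wilson 95% interval 40.2 to 45.8%), 32.3% were in introns and 24.7% in exons (22.3 to 27.2%). Of the divergent peaks 61.2% lay between genes and 27.4% in exons. Of the non-passing one-directional summits 21.5% lay between genes and 63.1% in exons. These shares are a description and were not tested. The 292 one-directional peaks in exons had a median signal of 103, against 143 for the 508 between genes and 136 for the 382 in introns.

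Base composition moved with these classes. Within 50 bp of the summit, median GC content was 39.6% at one-directional peaks, 36.6% at divergent peaks and 50.5% at non-passing summits. Relative to flanks 500 bp away, GC was lower by a mean of 3.16 percentage points at one-directional peaks (value -3.16 ± 0.396, SE over 1182 peaks) and differed by -10.9 ± 0.483 points at divergent peaks and 7.73 ± 0.154 points at non-passing summits. Non-passing summits were richer in GC than the mean of both flanks and passed ones poorer, by less at one-directional than at divergent peaks. At one-directional peaks the difference lay on the downstream side. Their mean GC was 40.2% at 490 bp upstream of the summit, 39.9% at 10 bp upstream and 46.3% at 490 bp downstream. At divergent peaks these means were 46.1%, 36.1% and 50.3%, lower at the summit than on both sides.

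**Figure D3:**
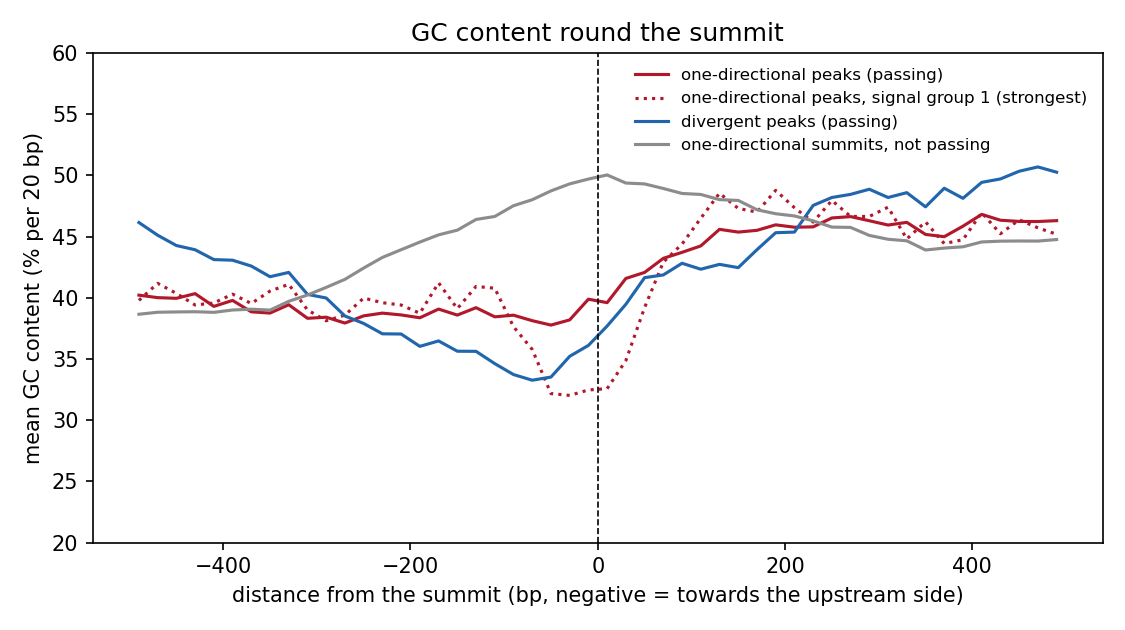
Mean GC content in 20 bp steps (vertical axis, percent) by distance from the summit in the direction of the gene (horizontal axis, bp) for one-directional peaks, their signal group 1 (the strongest 237 of 5 groups), divergent peaks and non-passing one-directional summits. At 10 bp upstream the means are 39.9%, 32.5%, 36.1% and 49.7% in that order, and signal group 1 lies lowest there.

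Strong one-directional peaks differed from weak ones in place and composition. They were split by signal into 5 groups of 236 or 237 peaks. In group 1, the strongest (signal 259 to 2597), the median summit lay 161 bp upstream, 88.6% were upstream and the median GC content within 50 bp was 31.7%. In group 5, the weakest (signal 2.22 to 87.8), the median summit lay 28 bp upstream, 58.2% were upstream and the median GC content was 46.5%. The 3 groups between them lay in order for all 3 measures. Of group 1, 99.6% passed in both replicates, of group 2 91.9%, of group 3 50%, of group 4 8.90% and of group 5 9.70%. Pooled signal shares the reads of both replicates, so an order of this kind is built in. Group 5 includes the 46 peaks with a signal under 40, of which 40 were overlapped by a stronger passed peak. Such a peak can count as passed through the replicate peak of its neighbour. All these values by group are descriptions across peaks of the same libraries, with no test.

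**Figure D4:**
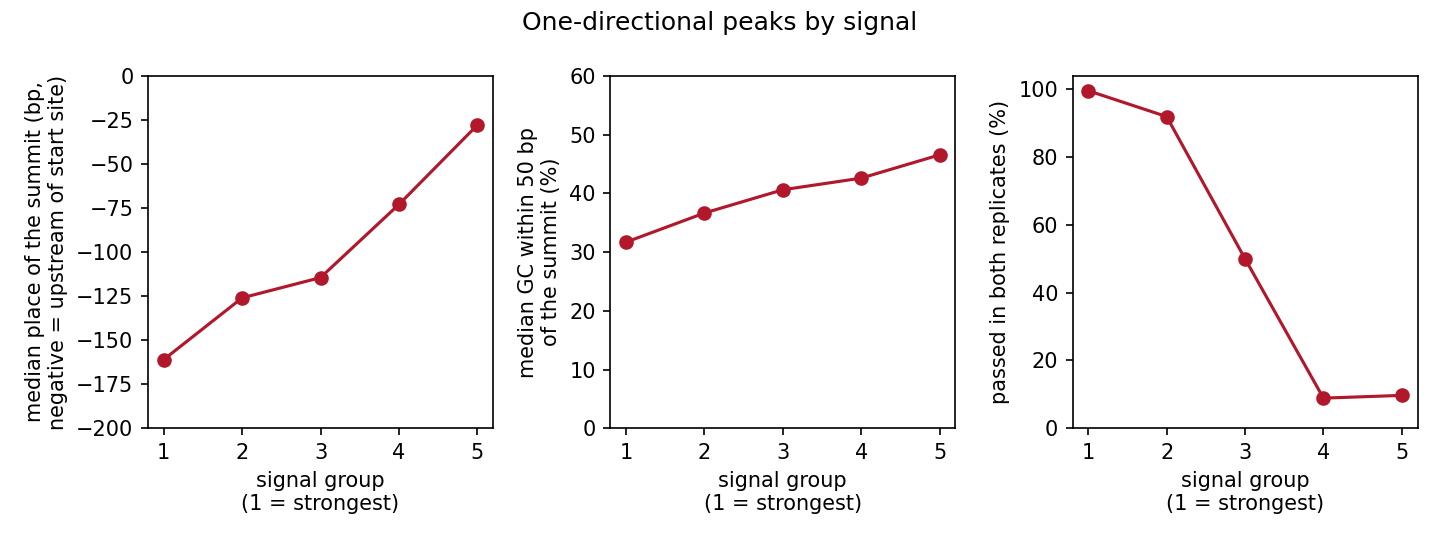
One-directional peaks split into 5 groups by pooled signal (horizontal axis, 1 strongest) with the median place of the summit in bp, the median GC content within 50 bp in percent, and the percentage that passed in both replicates. The summit moves from 161 to 28 bp upstream and GC content runs from 31.7% to 46.5% from group 1 to group 5. Passing in both replicates is not independent of the groups, since pooled signal shares the reads of the replicates.

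The neighbourhood of the start site was examined for features that the rule did not use. One-directional peaks were less often at a start site inside the body of another protein-coding gene, with 129 of 1182, or 10.9%, against 1199 of 6035 non-passing summits, or 19.9% (ratio 0.549, interval 0.463 to 0.651; Fisher's exact test, adjusted p = 1.23e-13). The shares were 10.4% and 18.5% in replicate 1 and 11.6% and 19.0% in replicate 2. Among those that were inside another gene, eIF6 lies within ytr, MFS10 within CG15717 and moody within CG4313. They had a median signal of 134, beside 131 for those not inside another gene.

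A tandem gene, whose end lies on the same strand within 1000 bp upstream, was found at 386 one-directional peaks (32.7%) and at 33.9% of non-passing summits (ratio 0.962, interval 0.880 to 1.05; Fisher's exact test, adjusted p = 0.428). This ratio turned with the place of the summit. When summits 0 to 300 bp upstream alone were compared it was 1.36 (Fisher's exact test, p = 4.27e-07), and with summits within 200 bp of the start site it was 1.27 (p = 4.69e-06). The strongest peaks with a tandem neighbour were those of CG14100 behind ash1, CG18549 behind vrs and GstE13 behind Su(var)2-10, a SUMO ligase gene.

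A noncoding gene starting on the opposite strand within 1000 bp upstream was present at 57 one-directional peaks (4.82%) and at 3.76% of non-passing summits (ratio 1.28, interval 0.965 to 1.70; Fisher's exact test, adjusted p = 0.135), which did not pass. The ratio was 1.33 in replicate 1 and 1.54 in replicate 2, and replicate 2 alone passed an unadjusted 0.05 (Fisher's exact test, p = 0.00904). Among the strongest with such a noncoding partner were eIF6 (asRNA:CR45928), brwl (lncRNA:CR44149) and PlexA (asRNA:CR44031).

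Genes with several start sites over 100 bp apart gave a choice of promoters. At these genes the nearest start site was the most upstream one for 263 of 662 one-directional peaks, or 39.7%, and for 526 of 1568 non-passing summits, or 33.5% (ratio 1.18, interval 1.05 to 1.33; Fisher's exact test, adjusted p = 0.0153). Replicate 1 gave 39.7% and 34.0%, and replicate 2 gave 40.04% and 33.9%. The difference was absent, at a ratio of 0.994 (p = 0.950), when summits 0 to 300 bp upstream alone were compared (Fisher's exact test).

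Some genes carried one-directional peaks at several of their start sites. The 1182 peaks belonged to 1058 genes and 1130 start sites, with 96 genes having 2 peaks and 11 having 3 or more. Rtnl1 had 5, with signals of 912, 492, 195, 140.0 and 34.0 at 4 start sites. Ptpmeg2, a protein tyrosine phosphatase gene, had 4 at 4 start sites, with signals of 477, 341, 328 and 221, all of which passed in both replicates. dnc, the cAMP phosphodiesterase gene known from learning mutants, had 3 at 3 start sites, with 567, 261 and 165, again passed in both replicates. Moe (the ERM protein Moesin), cindr and shn also had 4 each, though not all at separate start sites. At cindr a peak of 3.06, overlapped by a stronger passed peak, shared its start site with that of 103. At shn a peak of 8.41 shared its start site and its matched replicate peaks with that of 232.

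The passing share of one-directional summits differed little between chromosome arms. On 3R it was 7.68%, a ratio of 0.831 to the other arms (interval 0.727 to 0.949; Fisher's exact test, p adjusted over the 6 arms = 0.0347), and the other 5 arms did not pass. On the remaining large arms the shares were 9.84% on 2L, 9.16% on 2R, 9.18% on 3L and 8.81% on X. Arm 4 had only 1 ranked one-directional summit, which passed, so nothing can be read from its test. In replicate 2 alone no arm passed, and in replicate 1 alone 2 did.

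Known motifs were sought within 100 bp of the summit on both strands. The Dref site was searched as TATCGATA, the short BEAF-32 site, which the Dref site contains, as CGATA, and Motif 1 as GGTCACAC. Motif 6 was NGTATNTTT with a purine at the first N and A or T at the other. Motif 7 was CANCNCTN with G or T at the first N, any base at the next and a purine at the last. The CTCF site was AGNNGGCGC with a purine and then G or T, and the Su(Hw) site TGCATANTT with a pyrimidine. The GAGA factor site was GAGAGAG, the Zelda site CAGGTAG and the Pho site GCCATTT. The TATA box was TATAAA and the initiator TCANTN with G or T and then a pyrimidine. The homeodomain site was TAATTA and the GATA site GATAAG. The E-boxes were CAGCTG and CACGTG, and the Grainyhead site was AACCGGTT. The AP-1 site was TGANTCA with C or G, the CREB site TGACGTCA and the Ewg site TGCGCATG. A match is a match of letters and not a bound site. A window at a divergent promoter can hold the elements of both genes, and peaks of a single gene share some sequence.

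Against non-passing summits of one-directional promoters, 11 of the 20 motifs (55%) were more frequent at one-directional peaks and 1 (5%) less frequent at an adjusted p under 0.05. The largest ratio was that of the CTCF site, held by 36 one-directional peaks, or 3.05%, and 0.795% of non-passing summits (ratio 3.83, interval 2.50 to 5.87; Fisher's exact test, adjusted p = 2.40e-08). The Dref site was at 57 peaks, or 4.82%, and at 1.47% of non-passing summits (ratio 3.27, interval 2.36 to 4.53; Fisher's exact test, adjusted p = 2.12e-10). Motif 6 followed at 3.72% and 1.28% (ratio 2.92), then Motif 1 at 3.13% and 1.28% (2.45), the Su(Hw) site at 1.27% and 0.563% (2.25) and the GAGA factor site at 8.29% and 3.96% (2.09). The homeodomain letters were at 13.0% and 6.28% (2.07), the TATA box letters at 27.1% and 13.4% (2.01), Motif 7 at 16.3% and 9.58% (1.70), the short BEAF-32 site at 32.7% and 24.7% (1.33) and the initiator at 40.8% and 36.9% (1.11). The Zelda site was at 0.846% and 1.69% (ratio 0.501; Fisher's exact test, adjusted p = 0.0478).

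These ratios did not all depend in the same way on composition and place. Among windows of 35 to 45% GC the ratio was 8.36 for CTCF, 2.57 for Dref, 2.41 for Motif 1, 2.08 for Motif 6, 1.72 for Motif 7 and 2.36 for GAGA, all past the threshold, whereas it was 0.968 for the TATA box and 0.988 for the homeodomain letters. Among summits 0 to 300 bp upstream it was 1.06 for GAGA (Fisher's exact test, adjusted p = 0.771). GAGA passed in 15 of 17 alternatives, the exceptions being this one and a motif window of 50 bp. The homeodomain letters passed in 14. They were lost at 35 to 45% GC, in the window at the start site, and with flanks 500 bp away in place of non-passing summits. Dref, CTCF, Motif 1 and Motif 7 passed in all 17 alternatives, each replicate alone among them. In replicate 1 the Dref site was at 4.46% and 1.63% and the CTCF site at 3.49% and 0.963%. In replicate 2 the Dref site was at 5.47% and 1.67% and the CTCF site at 3.98% and 0.937%. Su(Hw) passed in 7 of the 17 and Zelda in 10. The initiator passed in the same direction in 8 and in the other direction in 3, with ratios of 0.900 within 200 bp of the start site, 0.857 at 0 to 300 bp upstream and 0.920 in the window at the start site. The short BEAF-32 site and Motif 6 passed in 16, the exception being the window at the start site, where their ratios were 1.05 and 1.24. In that window the ratio of the TATA letters was 0.897, past the threshold in the other direction.

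The start-site windows show how common these letters are at promoters in general. From 250 bp before to 50 bp after the start site, the 1130 start sites with a one-directional peak held the Dref site in 6.99%, against 4.61% of all 13216 one-directional start sites. CTCF letters were in 2.83% against 0.999%, GAGA letters in 17.3% against 9.30% and Motif 7 in 20.6% against 13.2%. The TATA letters in this window were in 37.1% against 39.97%. On the gene's own strand, 45 to 10 bp before the start site where a TATA box acts, they were at 4.34% of the start sites with a one-directional peak, 2.85% of those with a divergent peak and 12.3% of those of non-passing summits. The letters were more frequent round the summits of one-directional peaks than round non-passing summits, and less frequent at the place of the TATA box.

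Against divergent peaks, 2 of the 20 motifs (10%) were more frequent at one-directional peaks and 6 (30%) less frequent. GAGA letters stood out, at 98 of 1182 one-directional peaks, or 8.29%, and 15 of 897 divergent peaks, or 1.67% (ratio 4.96, interval 2.90 to 8.48; Fisher's exact test, adjusted p = 3.28e-11). The ratio was 3.92 in replicate 1 and 4.47 in replicate 2, and it passed in all 16 alternatives, between 3.13 and 7.44. The CTCF site was at 3.05% of one-directional and 1.23% of divergent peaks (ratio 2.48, interval 1.27 to 4.85; Fisher's exact test, adjusted p = 0.0192), with 3.24 in replicate 1 and 2.58 in replicate 2, and passed in 12 of 16.

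The following 6 were less frequent at one-directional than at divergent peaks. The Dref site was at 4.82% of one-directional and 12.04% of divergent peaks (ratio 0.401, interval 0.294 to 0.545; Fisher's exact test, adjusted p = 1.10e-08). Motif 7 was at 16.3% and 32.1% (ratio 0.509), Motif 1 at 3.13% and 5.46% (0.573) and the short BEAF-32 site at 32.7% and 46.9% (0.698). The homeodomain letters were at 13.0% and 17.7% (0.735) and the TATA letters at 27.1% and 36.2% (0.747). Dref, Motif 7 and BEAF-32 passed in all 16 alternatives, and Motif 1 in 8, neither replicate alone among them. The TATA letters passed in 15, the exception being a window of 50 bp. The homeodomain letters passed in 13 and were lost in replicate 2 alone (Fisher's exact test, adjusted p = 0.164), among the stronger 50% of peaks and at 35 to 45% GC. No difference passed for Motif 6, at 3.72% of one-directional and 5.24% of divergent peaks (ratio 0.710, interval 0.475 to 1.06).

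**Figure D5:**
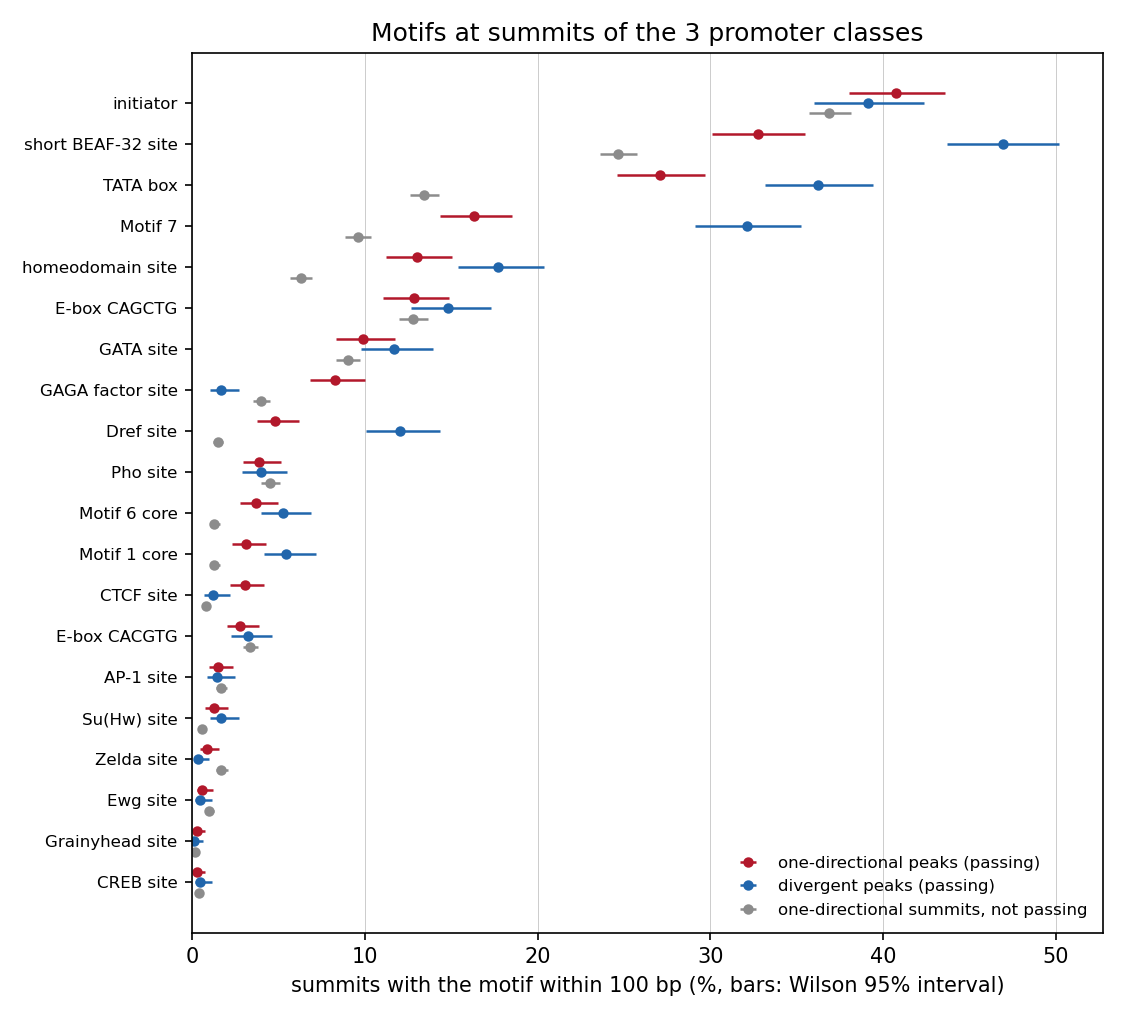
Percentage of summits with each of the 20 motifs within 100 bp (horizontal axis, with Wilson 95% intervals) for one-directional peaks, divergent peaks and non-passing one-directional summits. For the GAGA factor site the one-directional peaks lie at 8.29%, above 1.67% at divergent peaks and 3.96% at non-passing summits, while for Dref and Motif 7 they lie between the other classes.

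The shares of motifs over the signal groups are a description with no test. The Motif 1 core was at 0.844%, 5.93%, 2.97%, 3.39% and 2.53% from group 1, the strongest, to group 5, in no order. The CTCF site was at 3.38%, 5.08%, 4.66%, 1.27% and 0.844% from group 1 to group 5. The Dref site ranged from 3.38% to 5.51% over the groups and the GAGA letters from 6.78% to 9.28%. Matches to the CTCF site lay closest to the summit, at a median distance of 23 bp, with 21 of 36 within 30 bp. Those of GAGA lay at a median of 63 bp. Motif 7 matches on a single strand were on the strand of the gene in 110 of 168 peaks, or 65.5% (Wilson 95% interval 58.0 to 72.2%), and GAGA matches in 47.3% (37.3 to 57.4%).

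Among strong carriers of the GAGA letters were CG18549 (1414), px (1411) and osp (674). The strongest with a CTCF site were Smg5, a factor of nonsense-mediated decay (489.8, with 276 in replicate 1 and 205 in replicate 2), CG3358 (454) and dco (369), whose window is shown above. The strongest with a Dref site were Alg3, a mannosyltransferase of N-glycosylation (898), the elongation factor gene eEF1gamma (483) and CG1827 (459).

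Short words, 8 bases long, were taken from the summits (50 bp to each side) on chromosome 2, and their frequency was then compared with that at non-passing summits on 3, 4 and X. All 20 words carried over (100%) were more frequent at one-directional peaks by a one-sided Fisher's exact test, and 18 consisted of A and T only. TTTAAAAA was at 5.58% of one-directional peaks and 1.25% of non-passing summits (ratio 4.46, interval 2.94 to 6.77; one-sided Fisher's exact test, adjusted p = 4.54e-10), and ATTTAAAA at 5.58% and 1.196%. The word TGTTTTAA was at 1.72% and 0.372% and ACACTGCA, the only one with several G and C, at 1.00% and 0.292% (ratio 3.42; one-sided Fisher's exact test, adjusted p = 0.0148). In each replicate alone 19 of 20 passed. When windows of 35 to 45% GC alone were compared, 3 words could be carried over and none passed; the part of GC content in these words was not tested further.

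Genes were also read by lists. Of 7184 genes with a ranked summit at a one-directional promoter, 1058 had a one-directional peak, or 14.7%, with a median signal of 138 at the strongest peak of each. The lists were chosen with earlier results known and carry no test. Of cytosolic ribosomal protein genes 20 of 34 had one, or 58.8% (Wilson 95% interval 42.2 to 73.6%), with a median signal of 199 and 17 in both replicates. Their summits lay at a median of 19 bp upstream, and all 20 lay within 100 bp, as did 430 of all 1182 one-directional peaks (36.4%). RpL23A was the highest, at 555 (233 in replicate 1 and 322 in replicate 2), followed by RpL24 at 296 and RpS4 at 288. The short BEAF-32 site was at 14 of the 20, Motif 7 at 8, Motif 1 at 6 and Dref at 4. Over all one-directional peaks these were at 32.7%, 16.3%, 3.13% and 4.82% in that order. The initiator and the TATA letters were at 4 each, beside 40.8% and 27.1% over all. The homeodomain and GAGA letters were at 0, beside 13.0% and 8.29%. Motif 6, the Pho site and the E-box CACGTG were at 3 each, beside 3.72%, 3.89% and 2.79%. The remaining motifs were at 2 or fewer. In 16 of the 20 the score was higher in replicate 2 than in replicate 1, whereas this was so for 37.5% of all genes with a peak.

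Other lists near or above the share of all genes were small. Of translation factors 7 of 20 had a one-directional peak, led by eIF6 (1589.6), eEF1gamma (483) and eEF1alpha1 (211). Of insulator and promoter factors 5 of 8 had one: Trl, which encodes the GAGA factor (367), row (282), BEAF-32 (213), pita (141) and CTCF (111), of which CTCF passed in replicate 1 only. Polycomb and Trithorax group genes had 3 of 9 (ph-p at 1735, the remodeller gene kis at 83.6 and ph-d at 73.6). Signalling genes had 6 of 19, led by spi, the EGF receptor ligand (262), and N, the Notch receptor (156). Heat shock and chaperonin genes had 3 of 12, with Hsp27 at 668, Hsp26 at 147 and Hsp60A at 79.7. The pan-neuronal gene elav was the only 1 of 10 neuronal genes, with a signal of 661 (363 in replicate 1 and 299 in replicate 2).

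Some lists had few or no genes with a one-directional peak, and where the upper bound lies above 14.7% the list is too short to be set apart from all genes. None of 106 chemoreceptor genes had a one-directional peak (Wilson 95% upper bound 3.50%), none of 15 Hox and segmentation genes (20.4%), none of 18 serine protease genes (17.6%) and none of 12 immune peptide genes (24.2%). Cuticle protein genes had 1 of 94 (Cpr78Cb, 111) and odorant binding protein genes 1 of 28 (Obp99b, 290.1). Genes with a symbol starting with Cyp, the pattern used for cytochrome P450 genes, had 2 of 53. These were Cyp310a1 (118) and Cyp1 (123), of which Cyp1 is a cyclophilin gene and not a cytochrome P450 gene. Mitochondrial ribosomal protein genes had none of 11 (25.9%). Of oxidative phosphorylation genes 3 of 27 had one, and of proteasome genes 1 of 18 (Rpn12, 86.2).

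Just inside 500 bp were CG12910 (499 bp downstream, signal 85.8), PGRP-LB (499 bp upstream, 121) and CG42671 (498 bp upstream, 399), and just outside were CG31612 (501 bp downstream, 468), Samuel (502 bp upstream, 178) and t-cup (502 bp upstream, 125). At the partner limit, Nep1 (opposite start site 1004 bp upstream, signal 86.7), CG9992 (1012 bp, 111) and Eno, the enolase gene (1015 bp, 551), counted as one-directional, and RpS7 (1000 bp, 239), Ance (984 bp, 158) and CG17127 (979 bp, 80.7) as divergent. In all, 198 one-directional peaks had an opposite start site more than 1000 and up to 2000 bp upstream.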

How the data were processed

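Chromatin of whole embryos was fragmented by sonication to 200 to 800 bp and precipitated with an anti-GFP antibody, per the labels' protocols. The authors deposited peak lists on dm6: ranked and thresholded lists for the pool and for each replicate. The aligner and caller: not given in the sources used here. Signal in the deposited lists is a score from peak calling by the authors and has no common scale between lists, and the irreproducible discovery rate (IDR) is given as −log10; the lowest value among passed pooled peaks was 2.00001, so the limit was 2, an IDR of 0.01. No read numbers were used, so depth is unknown and intervals cover counting of regions only. Where nothing more is said of the biological replicates, their spread may be partly technical.

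Summits were placed against protein-coding start sites of Ensembl release 115, and sequence was read from the RefSeq FASTA of assembly release 6. Shares were compared by two-sided Fisher's exact tests (one-sided for words) with Wilson 95% intervals and Benjamini-Hochberg adjustment, threshold 0.05, in Python 3.11.15 with numpy 2.4.6, scipy 1.17.1, pandas 2.3.3 and matplotlib 3.10.9; the code was tested on simulated data. Alternatives were other lists, each replicate alone, other distances, windows, word lengths and GC ranges. Named peaks were the 20 strongest that passed in both replicates, the strongest of each arm, and the 3 strongest of each list, motif and neighbour class; Rtnl1, Ptpmeg2, dnc, Moe, cindr and shn were named after their values were seen. The members, gene lists and tests were chosen with earlier results of these data known.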

Additional observations from a re-analysis of the deposited data

Results flagged for a closer look

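The ranked pooled list holds 151 peaks past the IDR limit that the thresholded list does not, and 32 of them lay at one-directional promoters. They were picked out because the comparisons of the report count them as not passing, although they are past the limit. Those at genes with no passed peak, such as CG6966, are therefore among the 6035 non-passing summits. They enter as passed peaks only in an alternative setting, with 1214 one-directional peaks and 6002 non-passing summits. The ratio of passing shares was then 0.440. The highest signals were at larp (918), CG6966 (485), cbt (375), isoQC (331) and InR, the insulin receptor gene (312). The cause of their absence was not tested.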

How the results depend on the processing

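Of 165 values recomputed under 24 settings, 131 kept their direction and side of the threshold or, where the value is a count of calls, stayed within 1.5 times the count reported; such a count does not say which motifs or words passed. The lower passing share of one-directional summits (ratio 0.379 to 0.547) and their lower share inside other genes (0.534 to 0.607) passed under every setting run. The ratio for signal above the joint median was 0.942 to 0.946 in each replicate alone, 0.944 with the partner sought within 2000 bp, all no longer past the threshold, and 1.04 among the stronger 50% of peaks. For upstream summits it was 0.974 to 1.03 in each replicate alone, 1.01 with the partner within 500 bp and 1.00 within 2000 bp. It was 0.942 within 200 bp of the start site, past an unadjusted 0.05 (Fisher's exact test, p = 0.0267). For passing in both replicates it was 0.923 with the conservative list, 0.891 within 200 bp, 0.888 with the partner within 500 bp, 0.915 without overlapped peaks and 0.920 with the absent peaks added, all past an unadjusted 0.05, and 1.01 among the stronger 50%. For tandem ends it was 1.27 within 200 bp, 0.908 with the partner within 500 bp and 1.36 at 0 to 300 bp upstream, all past an unadjusted 0.05. For noncoding partners it was 1.46 with the conservative list, 1.35 with the strongest summit per gene and 1.43 at 0 to 300 bp upstream, all past an unadjusted 0.05, 0.931 within 500 bp, and 1.33 to 1.54 in each replicate alone, past it in replicate 2. For the first start site it was 0.994 at 0 to 300 bp upstream. Against non-passing summits 7 motifs passed at 35 to 45% GC, and against divergent peaks 5 passed with a motif window of 50 bp. Of words, 0 passed at 35 to 45% GC, and 12 words of 6 bases with at least 2 G or C did. For arms, 0 to 2 passed in each replicate alone, and 0 among the stronger 50%, within 200 bp, with the partner within 500 bp, with the strongest summit per gene and with the absent peaks added. The causes were not tested. The settings by GC, by place from 0 to 300 bp upstream, by words of 6 bases, with added peaks, with the window at the start site, without 50 kb round CG11247 and with start sites 250 bp downstream as partners were chosen after seeing the data. No paired analysis was possible because the series has 1 group and no contrast between samples.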

Other observations

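The word GCTTAA, chosen after its values were seen, lay within 100 bp of the summit of 145 one-directional peaks, or 12.3%, of 13.3% of divergent peaks and of 7.62% of non-passing one-directional summits. Over the 5 signal groups of one-directional peaks its share was 19.4% in the strongest, then 14.4%, 8.90%, 8.05% and 10.5%. The strongest carriers within 50 bp were GstE13 (1239), amon (836) and Sesn (815). Among other words of 6 bases with at least 2 G or C, AACACT was at 9.16% of one-directional peaks and 4.41% of non-passing summits on 3, 4 and X (ratio 2.07; one-sided Fisher's exact test, adjusted p = 1.99e-05), and its carriers included eIF6, cu and RpL23A.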
